A study of Homo sapiens with 4 samples.

Results

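The accessible regions of chromosomes 16 and 18 were examined in MCF10A cells before and after transformation with the HRAS oncogene. Merging the peaks of 4 ATAC-seq lists wherever they shared 1 bp or more gave 60886 regions (hg19), of which those on chromosome 16 (1512 regions) and chromosome 18 (1246 regions) were kept, 2758 altogether. The pair was selected on these same lists, because gained regions made up a smaller share of gained and lost regions there than on other chromosomes (38.0% on chromosome 16 and 40% on chromosome 18, with chromosome 20 next at 42.6%). A region was lost when both MCF10A libraries and neither G12V library had a peak, and gained when the pattern was the opposite. The split between the cell types is therefore described below without a test.

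MCF10A cells come from human breast epithelium, grow without limit in culture and are not transformed, and the untransduced line (labelled parental and WT) formed the first group. G12V denotes the same line after lentiviral transduction with HRAS G12V and a GFP vector, as a bulk population that first stopped growing and resumed growth after some weeks. Each group had 2 libraries, which the study calls biological replicates. Because the cells were assayed in bulk, a locus open in fewer cells and a locus less open in each cell cannot be told apart.

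On the 22 autosomes and X, 12888 and 34463 peaks were listed for replicates 1 and 2 of MCF10A and 14042 and 46673 for those of G12V, and the number of reads is unknown. Replicate 2 was thus the longer list in both groups. Of 11 epithelial marker genes, 3, 5, 0 and 2 had a promoter peak in the same order of libraries. KRT5, KRT14, KRT18, TP63 and CDH1 had none in any library. Of 6 markers of immune, fibroblast and endothelial cells, 0, 1, 1 and 1 had one, in each case COL1A1. The HRAS gene itself had a promoter peak in both MCF10A libraries (scores of 61.1 and 54.4) and in neither G12V library, and this checks nothing about the transduced copy.

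In ATAC-seq the Tn5 transposase inserts sequencing adapters where DNA is not packed into nucleosomes, so peaks mark promoters, enhancers and other open elements. Chromosome 16 is dense in genes, and its long arm carries classical cadherins and the metallothionein cluster. Chromosome 18 is poor in genes, and its long arm carries the desmosomal cadherins that hold epithelial cells together, the SERPINB protease inhibitors, and SMAD2 and SMAD4, which carry TGF-beta signals to the nucleus. The tumour suppressor p53 binds a pair of adjoining 10-base elements, AP-1 is a dimer of FOS and JUN proteins downstream of RAS, and TEAD proteins are the DNA-binding partners of YAP.

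The sequences that follow, read from GRCh37 on the plus strand, are those of the lost regions with a p53 match, together with the windows of the best-scoring lost and gained regions. Each window holds 150 bp at the middle of the best peak, and capitals mark matches to p53, AP-1 (TGACTCA or TGAGTCA) or TEAD (GGAATG or its complement CATTCC). The windows with a p53 match lay in an intron of CMIP (chr16:81565224-81565373), in an intron of a long non-coding RNA with METTL4 as the nearest coding gene (chr18:2148073-2148222), between genes with MBD2 nearest (chr18:51549848-51549997), and in an intron of PIGN with RNF152 nearest (chr18:59619652-59619801).
CMIP: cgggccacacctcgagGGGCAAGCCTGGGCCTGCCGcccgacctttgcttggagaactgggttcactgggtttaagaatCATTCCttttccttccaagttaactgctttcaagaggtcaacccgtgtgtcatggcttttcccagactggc
METTL4: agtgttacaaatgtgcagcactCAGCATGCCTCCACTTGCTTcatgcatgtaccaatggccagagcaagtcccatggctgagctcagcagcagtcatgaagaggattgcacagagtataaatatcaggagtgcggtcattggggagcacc
MBD2: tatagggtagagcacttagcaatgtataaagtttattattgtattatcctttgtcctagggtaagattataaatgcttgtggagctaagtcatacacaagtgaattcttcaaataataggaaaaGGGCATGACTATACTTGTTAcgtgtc
RNF152: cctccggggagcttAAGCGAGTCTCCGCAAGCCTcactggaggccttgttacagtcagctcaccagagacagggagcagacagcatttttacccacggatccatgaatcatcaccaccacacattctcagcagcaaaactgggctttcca
The matches in exon-overlapping regions are given alone, at HNRNPA1L3 (chr16:51587397-51587416) with 0 mismatches and at DNAH3 (chr16:21162222-21162241) with 3.
HNRNPA1L3: AGACATGCCCAGACTAGCTC
DNAH3: ATACAAGACTGGGCATGACC
The best-scoring lost regions had their windows at chr16:76030635-76030784 (CPHXL nearest), chr16:10402674-10402823 (ATF7IP2 nearest, with a TEAD match), chr18:73843274-73843423 (ZNF516 nearest) and chr18:74518463-74518612 (ZNF236 nearest, with an AP-1 match).
CPHXL: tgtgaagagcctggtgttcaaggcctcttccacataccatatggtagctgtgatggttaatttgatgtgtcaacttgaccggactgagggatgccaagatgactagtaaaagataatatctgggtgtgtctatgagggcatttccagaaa
ATF7IP2: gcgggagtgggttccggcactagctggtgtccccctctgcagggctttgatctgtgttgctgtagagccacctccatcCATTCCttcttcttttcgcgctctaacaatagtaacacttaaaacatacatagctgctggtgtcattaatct
ZNF516: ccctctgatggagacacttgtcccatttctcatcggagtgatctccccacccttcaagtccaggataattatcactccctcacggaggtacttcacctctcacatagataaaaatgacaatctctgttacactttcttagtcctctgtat
ZNF236: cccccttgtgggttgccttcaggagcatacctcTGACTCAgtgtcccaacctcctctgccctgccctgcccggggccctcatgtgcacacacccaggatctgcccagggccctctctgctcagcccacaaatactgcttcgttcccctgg
The best-scoring gained regions of chromosome 18 are shown for contrast, at chr18:70538520-70538669 (NETO1 nearest) and chr18:6482857-6483006 (L3MBTL4 nearest, with an AP-1 match).
NETO1: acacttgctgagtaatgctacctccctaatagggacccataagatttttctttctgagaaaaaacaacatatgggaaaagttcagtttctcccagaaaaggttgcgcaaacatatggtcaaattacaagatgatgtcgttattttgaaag
L3MBTL4: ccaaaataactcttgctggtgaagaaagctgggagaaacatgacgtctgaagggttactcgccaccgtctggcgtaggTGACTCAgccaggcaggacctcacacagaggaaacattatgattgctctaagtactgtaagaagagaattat

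Chromosome 16 held 44 lost and 27 gained regions, and chromosome 18 held 33 and 22. Lost regions were 2.91% of the regions of chromosome 16 and 2.65% of those of chromosome 18, beside 2.14% over all chromosomes. Gained regions were 1.79% and 1.77%, beside 3.20% over all chromosomes. Lost regions were thus somewhat more frequent, and gained regions less frequent, than over the genome at large. Most regions fell in neither class. A single library accounted for 59.0% of the 2758 regions, with 876 in G12V replicate 2 alone and 597 in MCF10A replicate 2 alone, and 159 regions had a peak in all 4 libraries.

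The patterns just outside the classes leaned the same way. They come from the lists on which the chromosomes were selected, so they add no separate support. A peak in both MCF10A libraries and in G12V replicate 2 only was found in 168 regions, 6.09% beside 5.22% over all chromosomes. The mirror pattern, both G12V libraries and MCF10A replicate 2 only, was found in 128 regions, 4.64% beside 6.46%. Regions seen in MCF10A replicate 2 alone were 21.6%, beside 15.8% over all chromosomes.

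Each list was also taken on its own, with the peaks of a chromosome given as a share of the list. Chromosome 16 took 2.32% of the peaks of MCF10A replicate 1, 2.74% of MCF10A replicate 2, 1.68% of G12V replicate 1 and 2.23% of G12V replicate 2. Chromosome 18 took 2.06%, 2.16%, 1.47% and 1.91% in that order. Both G12V libraries thus lay below both MCF10A libraries on either chromosome. Such a gap was common, as 36.6% of the 41 arms of the genome (15) had it, and whole chromosomes were not counted. The chromosomes were selected on these lists, so the gap adds no separate support. The libraries closest to each other across the groups were MCF10A replicate 1 and G12V replicate 2.

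By arm, the share of 16p was 1.06% and 1.17% in MCF10A and 0.712% and 0.930% in G12V. The share of 18p was 0.458% and 0.456% in MCF10A and 0.285% and 0.358% in G12V, and that of 18q was 1.6% and 1.71% against 1.18% and 1.55%. The groups did not overlap on these 3 arms. On 16q they did, with 1.26% and 1.57% in MCF10A and 0.969% and 1.30% in G12V. Over the genome, 36.6% of the 41 arms (15) had a lower share in both G12V libraries, so such a gap was common, and 12p, 19p and 20p were among the others.

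**Figure D1:**
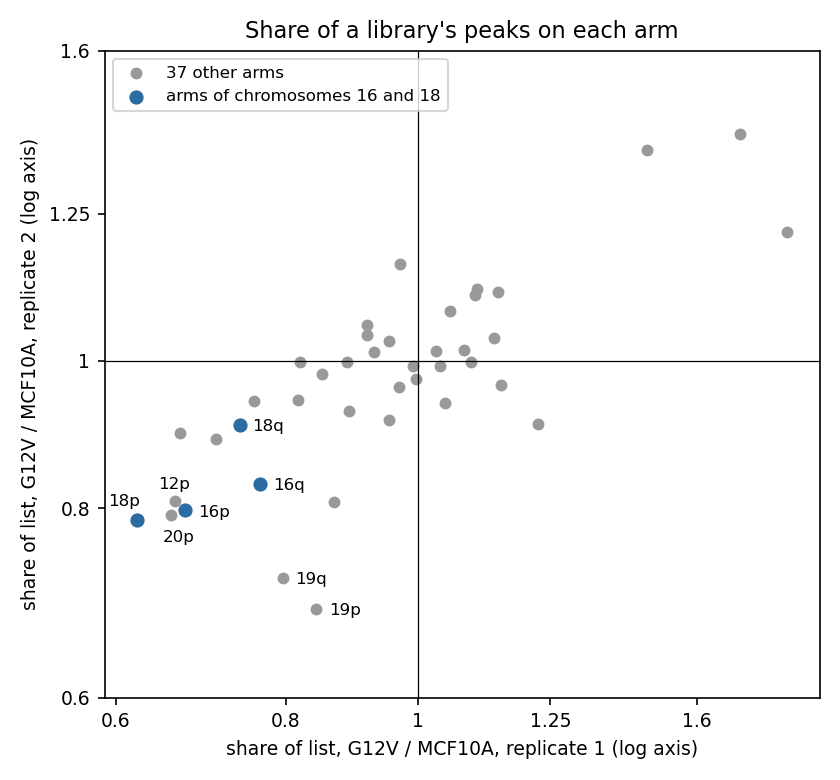
Each point is 1 of 41 chromosome arms, placed by the ratio of its share of the G12V list to its share of the MCF10A list in replicate 1 (horizontal, log axis) and replicate 2 (vertical, log axis). All 4 arms of chromosomes 16 and 18 (blue) lie below 1 on both axes, with 18p lowest in replicate 1, and 12p, 20p, 19p and 19q lie near or below them.

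Libraries were paired by replicate number, and the labels do not say whether equal numbers were handled together. The ratio of G12V to MCF10A shares was 0.62 on 18p in the first replicate pair, the lowest of the 41 arms. In the second pair it was 0.79, number 3 from the lowest. On 16p it was 0.67 and 0.80, number 5 in both pairs. On 16q it was 0.77 and 0.83, and on 18q 0.74 and 0.91. The direction recurred in both pairs on every arm of the 2 chromosomes, and other arms were as low.

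The share was also taken separately for peaks at promoters (1000 bp before to 500 bp after the start of a coding gene) and for all other peaks. On chromosome 16 the promoter share was 2.72% and 3.62% in MCF10A and 2.23% and 3.36% in G12V, which overlap, and the share of other peaks was 2.11% and 2.42% against 1.40% and 1.96%. On chromosome 18 the promoter share was 1.78% and 1.82% against 1.30% and 1.71%, and the share of other peaks 2.20% and 2.28% against 1.55% and 1.96%. Both kinds of peaks thus had lower shares in both G12V libraries on chromosome 18, and on chromosome 16 only the peaks away from promoters did. This split was not made for other chromosomes.

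Positions along each arm were described in 10 bins of equal length, numbered from 1 at the centromere. Arm 16p held 22 lost and 13 gained regions, 16q 22 and 14, 18p 9 and 7, and 18q 24 and 15. Of the 40 bins, 21 held more lost than gained regions, 8 held more gained, and 11 held equal numbers. Lost regions were thus spread over all 4 arms and not gathered in 1 segment. The balance depended on the libraries. In the second replicate pair alone gained regions were the more numerous on every arm, with 186 lost and 215 gained on 16p, 215 and 287 on 16q, 67 and 78 on 18p and 235 and 377 on 18q, as they also were without G12V replicate 1. In the first pair alone lost regions were the more numerous on every arm (102 and 67, 109 and 82, 48 and 29, and 127 and 90). Over all chromosomes gained regions outnumbered lost ones in both pairs, with 8585 gained and 7384 lost in the first and 23918 and 11247 in the second. With 4 lists of equal length they were about equal, 1369 gained and 1357 lost. The study combined replicates and called peaks with each cell type as background for the other, and it reported more lost than gained regions.

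On 16p, lost regions were most numerous in bin 2 (28228642 to 31757221), with 5 lost and 3 gained, and in bins 4 and 5, with 4 lost each and 0 and 2 gained. Toward the telomere the balance turned, and bin 10 held 1 lost and 3 gained regions. On 16q, bin 7 (72767173 to 77164067) held the most of both classes, 5 lost and 6 gained, bin 2 held 4 and 1, and bin 9 held 3 and 0. On 18q, bins 6 and 7 (48294074 to 60207343) each held 5 lost regions, with 2 and 1 gained. The outer bins of 18q went the other way, with 1 lost and 3 gained in bin 9 and 3 and 4 in bin 10. On 18p no bin held more than 2 of either class.

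The shares of the lists by bin showed the same spread. In 17 of the 40 bins both G12V shares lay below both MCF10A shares, and in 1 bin, bin 9 of 18q (66163979 to 72120613), they lay above. There the shares were 0.124% and 0.125% in MCF10A and 0.142% and 0.159% in G12V. Bin 4 of 16p (21171482 to 24700061) was an example of the lower kind, with 0.116% and 0.136% in MCF10A and 0.0427% and 0.0857% in G12V. Bins of other chromosomes were not counted. Of the 41 whole arms of the genome, 36.6% had a lower share in both G12V libraries, so the count of bins is not read as particular to these chromosomes.

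**Figure D2:**
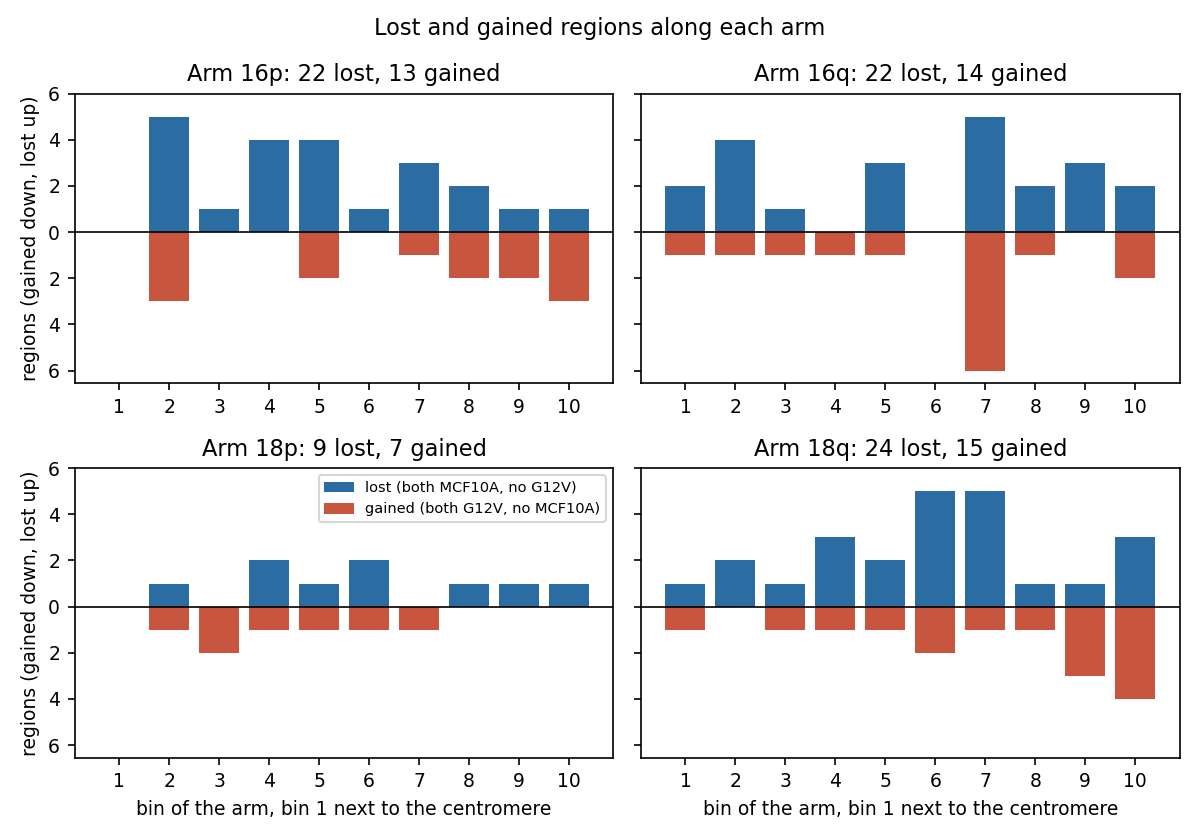
Bars count lost (blue, up) and gained (red, down) regions in 10 equal bins of each arm, with bin 1 next to the centromere. Lost regions occur in most bins of all 4 arms, gained regions are the more numerous in bin 10 of 16p and bins 9 and 10 of 18q, and bin 7 of 16q holds the most gained regions, 6.

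Lost and gained regions were also read for neighbours within 100 kb. On chromosome 16 there were 5 neighbouring pairs of lost regions, 1 pair of gained regions and 7 mixed pairs, and on chromosome 18 there were 4, 0 and 2. The lost run with the most members lay on 18q beside RNF152, which encodes a lysosomal ubiquitin ligase, with lost regions at chr18:59563923-59564602, chr18:59616996-59617697 and chr18:59619318-59620135, the last of which holds the p53 match shown above. Other lost pairs lay in ITGAM (CD11b, an integrin of myeloid cells), in ZFHX3 (a zinc finger and homeodomain factor), in LAMA1 (a laminin chain) and beside APCDD1 (an inhibitor of WNT signalling). Mixed pairs included ORAI3 (a calcium channel subunit), whose promoter region was gained, and SETD1A (a histone H3 lysine methyltransferase), whose promoter region was lost 8279 bp away. CMIP had a gained region at its promoter and lost regions 86669 and 136210 bp away within the gene.

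The highest-ranked lost regions, by the lower of their score percentiles in the MCF10A lists, were mostly far from gene starts. A score is the caller's measure of peak strength, 10 times the negative log10 of its p-value, and a percentile places it in its own list. On chromosome 18 the first was chr18:73842530-73844168, in an exon of a long non-coding RNA and 363030 bp from the start of ZNF516, with scores of 137 and 325 (percentiles 94.9 and 97.7) in the MCF10A libraries and no peak in G12V. The next, chr18:74518114-74518962, lay 15551 bp from the start of the zinc finger gene ZNF236 (percentiles 92.1 and 95). These were strong peaks in both MCF10A libraries, not peaks near the caller's limit.

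The region beside APCDD1, chr18:10417098-10418030, stood at percentiles 89.1 and 84.5, and lay 36602 bp from the gene's start. The region nearest to METTL4, an adenine methyltransferase, stood at 83.5 and 83.8 and lay 423134 bp away. Regions 102145 bp from DCC, the netrin receptor gene, and 3683 bp from RNF152 stood at 70.8 and 86.5, and at 67.7 and 90.3. All 4 lacked a peak in both G12V libraries.

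On chromosome 16 the first lost region was chr16:76030260-76031119, between genes and 269872 bp from the homeobox gene CPHXL, with scores of 128 and 185 (percentiles 93.4 and 90.2). The next, chr16:10402372-10403096, lay 76822 bp from ATF7IP2 (88.0 and 89.3). A region in an intron of ZFHX3, chr16:73049610-73050302, stood at 78.4 and 82.0. A region 60494 bp from RBL2, which encodes the RB-family protein p130, stood at 77.8 and 80.8. A region at CHD9NB stood at 77.4 and 66.0, and one 87647 bp from CDH5, the endothelial cadherin, at 65.0 and 81.8. Of all lost regions, 10 of 44 on chromosome 16 and 12 of 33 on chromosome 18 were at or above the 50th percentile in both MCF10A lists.

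Gained regions reached lower percentiles in their own lists. The first on chromosome 18 was chr18:70538030-70538940, 2808 bp from the start of NETO1, an auxiliary subunit of glutamate receptors, with scores of 94.8 and 240 (percentiles 81.7 and 91.3) in the G12V libraries. The promoter of NETO1 itself had a peak in MCF10A replicate 2 alone (score 47.4). The next were 67705 bp from L3MBTL4, a chromatin-binding MBT protein (72.4 and 91.3), in an intron of IMPA2, an inositol monophosphatase (64.4 and 63.2), and 785 bp from C18orf63 (56.4 and 72.1). Only 4 of 22 gained regions of chromosome 18 and 3 of 27 of chromosome 16 were at or above the 50th percentile in both G12V lists.

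On chromosome 16 the first gained region was chr16:75589785-75590637 at the promoter of TMEM231, a protein of the ciliary transition zone (72.4 and 79.3), and a second gained region lay 220 bp from it. The others were in an intron of CNTNAP4, a neurexin-family gene (56.6 and 75.4), at the promoter of PGP, a phosphoglycolate phosphatase (54.6 and 70.4), and in an intron of a long non-coding RNA 200979 bp from TMEM114 (46.1 and 78.3). The median of the lower percentile was 34.5 over the 77 lost and 25.6 over the 49 gained regions.

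**Figure D3:**
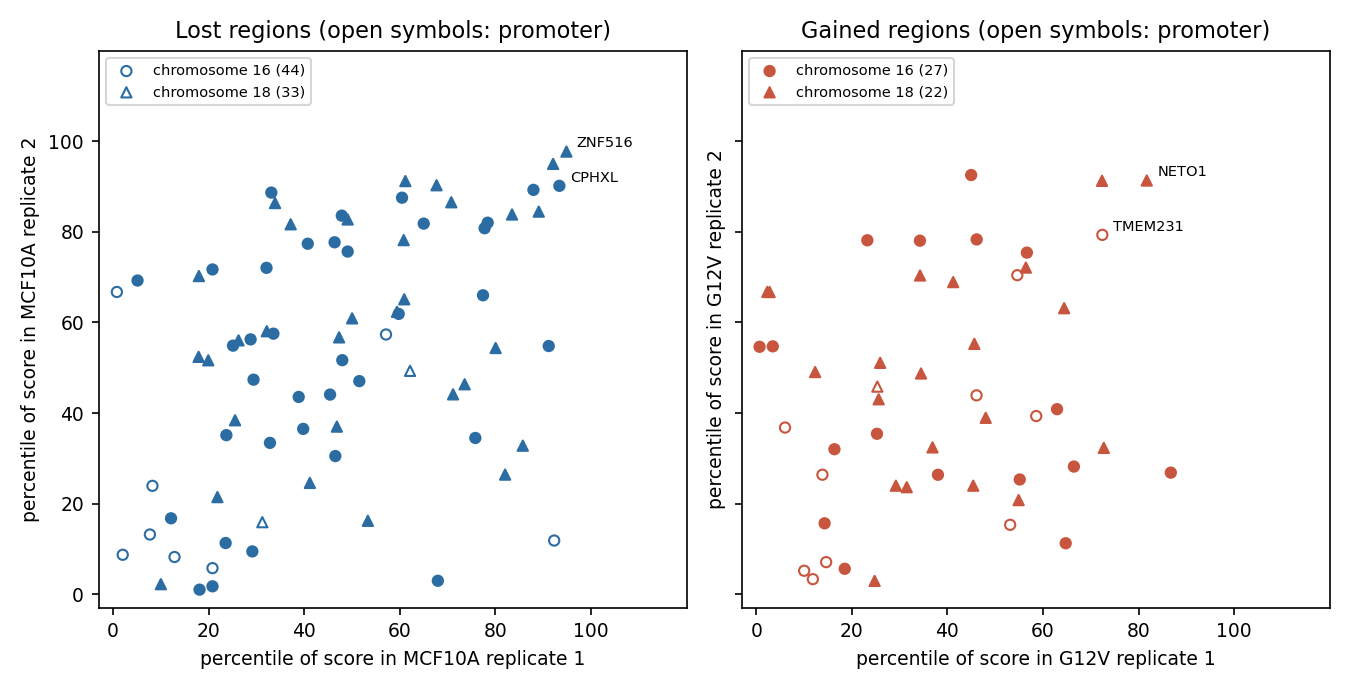
Each symbol is a lost region (left) or gained region (right), placed by the percentile of its score in replicate 1 (horizontal) and replicate 2 (vertical) of the cell type that has it, with circles for chromosome 16, triangles for chromosome 18 and open symbols at promoters. Lost regions reach the 94.9th and 97.7th percentiles beside ZNF516, and 6 of the 10 lost promoter regions lie toward the lower left.

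Of the 77 lost regions, 25 lay between genes, 28 in introns and 24 over exons, and their median distance to a coding gene's start was 49357 bp. Of the 49 gained regions, 12, 20 and 17 did, with a median of 41754 bp. Promoters held 10 of 77 lost regions (13%, 95% Wilson interval 7.21 to 22.3%), 11 of 49 gained regions (22.4%, 13 to 35.9%) and 91 of the 159 regions called in all 4 libraries (57.2%, 49.5 to 64.7%). On the other chromosomes these shares were 6.85%, 8.89% and 52.1%. Such intervals cover counting error only. The 2 chromosomes differed here, since promoters held 8 of 44 lost and 10 of 27 gained regions on chromosome 16 but 2 of 33 and 1 of 22 on chromosome 18.

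The promoters with a lost region on chromosome 16 were those of HNRNPA1L3, DNAH3 (an axonemal dynein), ZNF213, SBK1 (a kinase), SETD1A, ESRP2 (a splicing regulator of epithelial cells), SLC38A7 (an amino acid transporter) and PHKG2 (the catalytic subunit of phosphorylase kinase). On chromosome 18 they were those of SPIRE1 (an actin nucleator) and CLUL1. Apart from HNRNPA1L3 (57.1 and 57.4) and SPIRE1 (62.2 and 49.3), each stood under the 25th percentile in at least 1 MCF10A library. HNRNPA1L3 is a near copy of HNRNPA1, so its reads may be shared with that gene, although only reads with a unique position were kept. The ESRP2 promoter, at percentiles 20.8 and 5.76, was a weak peak in both.

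The promoters with a gained region were those of TMEM231, PGP, ITGAX (CD11c), PAQR4, SEZ6L2, CMIP (an adaptor protein), TRAP1 (a mitochondrial chaperone), VPS35L, BCAR1 (the adhesion docking protein p130Cas) and ORAI3 on chromosome 16, and CHMP1B (a subunit of the ESCRT-III membrane machinery) on chromosome 18. BCAR1 stood at percentiles 10 and 5.19 of the G12V lists, and TRAP1 at 14.6 and 7.09. Promoter peaks were also compared within each replicate number. In replicate 2, 82 of the 348 chromosome 16 promoters with a peak in MCF10A had none in G12V (23.6%), against 9 of 151 on chromosome 18 (5.96%) and 10.8% on the other chromosomes. In replicate 1 these shares were 48.2%, 41.3% and 30.0%. The reverse share, of G12V promoter peaks without one in MCF10A, was 19.6% on chromosome 16, 10.1% on chromosome 18 and 15.7% elsewhere in replicate 2, and 40.7%, 26.6% and 36.7% in replicate 1. Promoters of chromosome 16 were thus unmatched more often in both directions, while on chromosome 18 G12V promoter peaks were unmatched less often than elsewhere.

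A coding gene was counted as near a region within 100 kb of its start. On chromosomes 16 and 18, 137 of 1127 coding genes (12.2%) had a lost region within this distance and 120 (10.6%) a gained one, beside 9.25% and 14.9% of all coding genes. Lists of genes of these chromosomes were then read against those shares. Leaving out a library raises the background as well. Over all chromosomes 18.5% of regions were lost without MCF10A replicate 1, beside 2.14% with all 4 libraries. Without G12V replicate 1, 39.0% were gained, beside 3.20%. No share of coding genes is given for such settings, so list counts with a library left out are not read as results about the lists.

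Of the 7 desmosomal cadherins of 18q, 3 (DSC1, DSC2 and DSC3) had a lost region within 100 kb and none a gained one. This was a single region, chr18:28644063-28644523, over an untranslated exon of DSC2, with percentiles of 46.8 and 37.0 in MCF10A. It was no longer lost with the better-scoring 50% of each list or with lists of equal length, where 0 of the 7 genes were near a lost region, while 5 were without MCF10A replicate 2 and 6 without MCF10A replicate 1. Without G12V replicate 1, 4 of the 7 were near a gained region. At the promoters, DSC3 had a peak in MCF10A replicate 2 alone (score 161), and so had DSC2 (43.8) and DSG3 (63.7). DSG2 had one in replicate 2 of both cell types (115 in MCF10A and 95.2 in G12V), and DSC1, DSG1 and DSG4 had none. DSC2, DSC3 and DSG3 were thus 3 of the 9 chromosome 18 genes whose promoter had a peak in MCF10A replicate 2 and none in G12V replicate 2, the longer list. The other 6, named after their values were seen, were CLUL1, SPIRE1, RBBP8, ACAA2, TNFRSF11A and NETO1.

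None of the 10 SERPINB genes had a lost or gained region within 100 kb. With 1 library fewer this changed, as 5 were near a lost region when MCF10A replicate 1 or MCF10A replicate 2 was left out and 7 near a gained one without G12V replicate 1. SERPINB5 (maspin) and SERPINB8 had promoter peaks in all 4 libraries, with SERPINB5 at scores of 66.3 and 56.7 in MCF10A and 59.9 and 128 in G12V. Of the 12 other cadherins only CDH5 was near a lost region and none was near a gained one. This too depended on the libraries, as 9 were near a lost region without MCF10A replicate 1 and 11 near a gained one without G12V replicate 1. CDH1, the cadherin of epithelial junctions, had 7 regions within 100 kb and no lost or gained one.

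In the TGF-beta list, TGIF1, a homeodomain repressor of TGF-beta targets, was the 1 of 5 genes with a lost region, chr18:3350718-3351623, at 98547 bp (percentiles 73.6 and 46.4). SMAD2, SMAD4, SMAD7 and SKOR2 had none. When MCF10A replicate 1 was left out, 4 of the 5 genes were near a lost region, and without G12V replicate 1, 4 were near a gained one. Of the 12 genes for cell death and related to p53, LITAF had a lost region in an intron (28.8 and 56.3) and FBXO31 a gained one over an exon (23.2 and 78.2 in G12V). PMAIP1, which encodes the pro-apoptotic protein NOXA, had neither, and its promoter had scores of 75.1 and 136 in MCF10A, no peak in G12V replicate 1 and 268 in G12V replicate 2. BCL2, an inhibitor of cell death, had neither. Of these 12 genes, 10 were near a lost region without MCF10A replicate 1 and 11 near a gained one without G12V replicate 1.

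Of the 9 genes listed under RAS and kinase signalling, APCDD1 had 2 lost regions, and none had a gained region. MAPK4, an atypical MAP kinase, had 1 lost region in an intron (33.9 and 86.4). APCDD1 is an inhibitor of WNT signalling, so MAPK4 was the only kinase of this list near a lost region. MAPK3 (ERK1) had neither. Among 17 developmental transcription factors, SETBP1 had a lost region 59064 bp away in an intron (59.4 and 62.3) and a gained one 78080 bp away (24.8 and 2.94 in G12V), and TSHZ1 had a gained one (36.9 and 32.4). None of the 11 metallothioneins and neither laminin gene was near either class by its start. For the metallothioneins this depended on the lists, since all 11 lay near a gained region when every list was cut to the same number of best peaks, when MCF10A replicate 2, G12V replicate 1 or G12V replicate 2 was left out, and in either replicate pair alone. Near a lost region lay 9 of them without MCF10A replicate 1 and in the second replicate pair alone. The share of genes near a lost region was thus 42.9% of the desmosomal cadherins, 22.2% of the RAS and kinase list and 20% of the TGF-beta list, each from 1 to 3 genes, and 0 to 8.33% of the other lists. Neighbouring genes of a list can share a region, as the desmocollins did.

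Motif matches were counted in the 150 bp windows on both strands. A p53 match, with up to 3 mismatches outside the core bases, stood in 6 of the 77 lost regions (7.79%, with a 95% Wilson interval of 3.62 to 16%), 3 on each chromosome. It was found in 0 of 49 gained regions, which allows a share of up to 6.12%, and in 0 of 159 regions called in all 4 libraries, which allows up to 1.89%. Over all regions the share was 1.26%, and over the lost regions of the other chromosomes it was 7.10% (5.79 to 8.67%). Lost regions of chromosomes 16 and 18 thus held p53 matches about as often as lost regions elsewhere.

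The p53 matches lay in regions of unlike strength. The METTL4, MBD2 and RNF152 regions stood at percentiles of 83.5 and 83.8, 61.2 and 91.2, and 49.1 and 82.7 in the MCF10A lists. The CMIP region stood at 68.0 and 2.97, and the DNAH3 promoter at 92.3 and 11.9. HNRNPA1L3 held the one match without a mismatch, and CMIP the one with 2. The remaining 4 had 3 mismatches.

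AP-1, CTCF and grainyhead matches were about as common in lost and gained regions as in all regions. The TEAD share was higher in lost regions than in all regions, but its interval there included the share of lost regions elsewhere. In gained regions the TEAD interval included the share of all regions. AP-1 matches occurred in 13 of 77 lost (16.9%, 10.1 to 26.8%) and 7 of 49 gained regions (14.3%, 7.10 to 26.7%), beside 15.9% of all regions. By chromosome they were unequal, with 5 of 44 lost and 1 of 27 gained on chromosome 16 and 8 of 33 and 6 of 22 on chromosome 18. TEAD matches occurred in 14 of 77 lost regions (18.2%, 11.2 to 28.2%) and 7 of 49 gained regions (14.3%, 7.10 to 26.7%). These shares stood beside 11% of all regions and 12.6% of lost regions elsewhere. CTCF matches, with up to 1 mismatch, occurred in 4 lost (5.19%) and 3 gained regions (6.12%), beside 6.56%. Matches to the motif of grainyhead, a family of epithelial factors, occurred in 1 lost and 1 gained region, beside 0.856% of all regions. A match describes letters in the window and is not a bound site.

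Regions called in all 4 libraries were compared by rank. The best score of each of the 5090 such regions of the genome was turned into a percentile among them within each library, and the mean of both G12V ranks minus the mean of both MCF10A ranks gave the rank difference. On chromosome 16 the median rank of 81 regions was 54.5 and 52.8 in MCF10A and 45.8 and 43.6 in G12V. On chromosome 18 the median of 78 regions was 62.7 and 50.2 in MCF10A and 44.5 and 48.0 in G12V. Both G12V medians were below both MCF10A medians on either chromosome, by the least on chromosome 18 in replicate 2.

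The median rank difference was -10.7 percentile points on chromosome 16 (-3.82 between the first replicates and -11.9 between the second) and -5.89 on chromosome 18 (-8.33 and -5.91), beside -0.04 on the other chromosomes. On chromosome 16, 34 of 81 regions (42.0%) ranked lower in both G12V libraries than in both MCF10A libraries and 6 ranked higher. On chromosome 18, 23 of 78 (29.5%) ranked lower and 6 higher. Over all chromosomes 18.6% of such regions ranked lower and 18.7% higher. With percentiles of the whole lists in place of ranks, 7 of 81 and 5 of 78 were lower in both G12V libraries, beside 6.94% over all chromosomes, so these counts were then near the background. By arm the median was -11.6 on 16p, -9.03 on 16q, -13.1 on 18p (12 regions) and -5.03 on 18q. Chromosome 19 had a lower median than either (-12.1), so the shift was not particular to chromosomes 16 and 18. These ranks come from the contrast on which the chromosomes were selected.

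**Figure D4:**
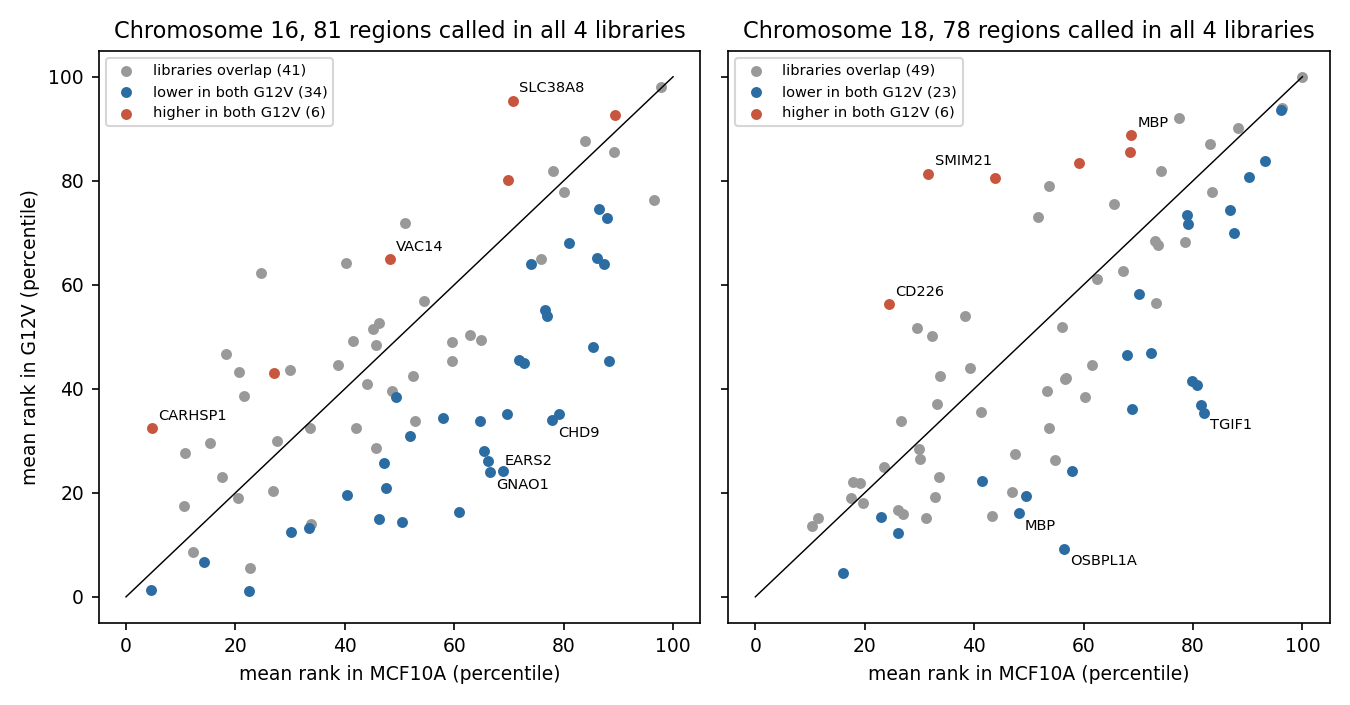
Each point is a region called in all 4 libraries on chromosome 16 (left) or 18 (right), placed by its mean rank in MCF10A (horizontal) and in G12V (vertical), in percentiles among the 5090 such regions, with the diagonal marking equal rank. Blue points rank lower in both G12V libraries (34 and 23) and red points higher (6 and 6), and the names are the nearest coding genes of the regions with the widest gaps between the nearest libraries of the groups.

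The gap between the nearest libraries of the 2 groups was used to order the regions that ranked lower in both G12V libraries. The widest on chromosome 16 was at the promoter shared by EARS2, a mitochondrial tRNA synthetase, and UBFD1, with ranks of 75.1 and 57.3 in MCF10A and 26.2 and 26.1 in G12V. A region over an untranslated exon of CHD9, a chromatin remodeller, ranked 69.7 and 85.9 against 26.6 and 41.2. A region in an intron of GNAO1, a G protein subunit gene, ranked 62.4 and 70.5 against 38.2 and 9.69. 

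On chromosome 18 the widest gap was in an intron of DLGAP1, with TGIF1 the nearest coding start, where ranks were 85.0 and 78.9 in MCF10A and 29.0 and 41.8 in G12V. The promoter of OSBPL1A, an oxysterol-binding protein, ranked 72.8 and 40.1 against 3.93 and 14.6. A region in an intron of MBP (myelin basic protein), chr18:74826435-74827245, ranked 52.7 and 43.7 against 7.75 and 24.4.

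Few regions ranked higher in G12V. On chromosome 16 these included a region over an untranslated exon of PMM2 (5.10 and 4.45 in MCF10A, 41.8 and 22.9 in G12V), an intron of SLC38A8 (77.8 and 63.6, then 94.7 and 96.2) and a coding exon of HYDIN (53.9 and 42.6, then 66.5 and 63.4). HYDIN has a near copy elsewhere in the genome, so its reads may be shared. On chromosome 18 they included chr18:73634986-73635858, between genes (47.4 and 15.8, then 86.5 and 76.1), an intron of RTTN (12.1 and 36.6, then 63.1 and 49.5) and chr18:74812974-74814549 in MBP (69.1 and 68.3, then 89.4 and 88.1). MBP thus held regions that moved in opposite directions within 1 gene.

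Rank differences moved with base composition and with promoters on chromosome 16. Split at 52% and 66% GC, the tertile limits of the 5090 regions, the median difference on chromosome 16 was -3.19 (12 regions), -2.52 (36) and -15.5 (33) from the lowest to the highest GC tertile. On chromosome 18 it was -4.11 (29), -4.71 (20) and -11.5 (29), while on the other chromosomes it was 0.31, -0.65 and 0.13. At promoters the median was -14 on chromosome 16 (52 regions) and -7.65 on chromosome 18 (39), and away from promoters -1.30 (29) and -5.43 (39). In the first replicate pair alone the chromosome 16 medians were positive in the lowest and middle GC tertiles (0.18 and 2.56) and away from promoters (1.27). On chromosome 18 they were negative in every tertile. The regions richest in GC on the 2 chromosomes thus carried the lowest differences. Of these, 84.8% on chromosome 16 and 86.2% on chromosome 18 were at promoters, so GC content and promoters overlap. In the middle GC tertile 66.7% and 55% were at promoters. The part of either was not tested.

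**Figure D5:**
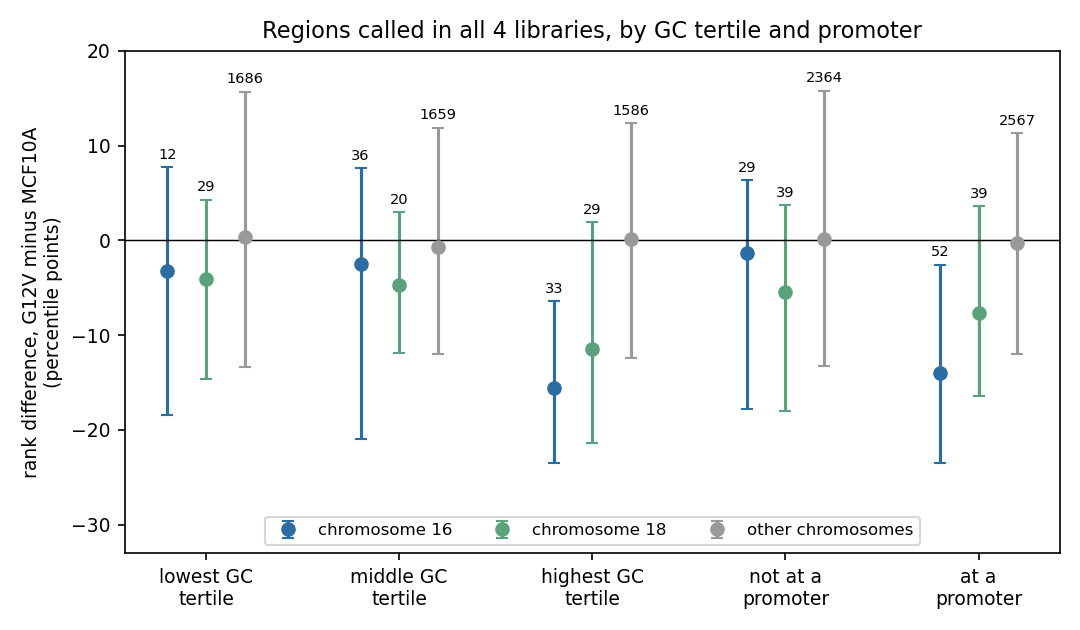
Points are median rank differences (G12V minus MCF10A, percentile points) of regions called in all 4 libraries on chromosome 16, chromosome 18 and the other chromosomes, bars span the lower to the upper quartile and numbers count regions. The medians of both chromosomes are below 0 in every GC tertile and lowest in the highest one (-15.5 and -11.5), while the other chromosomes stay near 0.

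The counts depended on list length. When each list was cut to its 12888 best peaks, chromosome 16 had 41 lost and 17 gained regions and chromosome 18 had 36 and 6, and 29 of the 77 lost and 8 of the 49 gained regions kept their class. Gained regions then made up 29.3% and 14.3% of both classes, beside 50.2% over all chromosomes, and the chromosomes were selected on this share. The regions beside CPHXL, ATF7IP2, ZNF516, ZNF236, APCDD1, METTL4 and NETO1 were among those that kept their class. Of the lost promoter regions only that of PHKG2 kept its class, and of the gained ones only that of TMEM231. Among lost regions with a p53 match, those at METTL4, MBD2 and RNF152 kept their class, and those at HNRNPA1L3, DNAH3 and CMIP did not.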

How the data were processed

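ATAC-seq peak lists of 2 MCF10A and 2 G12V libraries were used. As the study's methods and the labels give it, the authors aligned reads to hg19 with Bowtie, kept uniquely placed reads, shifted reads to the middle of the Tn5 insertion, as the assay requires, and called peaks with MACS. The deposited peak score, computed by the authors with MACS, equals 10 times −log10 of the p-value and had a minimum of 40. A locus just under that limit looks absent, so list length, the only depth measure here, limits every class. Scores served only as ranks within a library.

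Peaks on the 22 autosomes and X were merged (minimum overlap 1 bp). Peaks on Y (14 to 25 per library) were left out. Arms were split at the longest run of N in GRCh37. Gene starts were those of Ensembl canonical transcripts in GENCODE 44 mapped to GRCh37 (19819 of 20098 coding genes, otherwise the gene's 5′ end). Motifs were searched on both strands. No test was made between cell types, because the chromosomes were selected on that contrast, and with n = 2 the values of single libraries are given. Regions named were the 6 lost and 4 gained regions per chromosome with the highest lower percentile, those with a p53 match or at a promoter, the 3 widest rank gaps in each direction, and genes of set lists. The members and lists were chosen with earlier results of these data known. Alternatives are given in the closing section. Leaving out libraries for the p53 share, and the arm and list counts under each alternative, were added after seeing the data. Python 3.11.15, numpy 2.4.6, pandas 2.3.3, scipy 1.17.1 and pysam 0.24.0 were used, with matplotlib 3.10.9 for figures, and simulated data with known answers were used to check merging, ranking and motif search.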

Additional observations from a re-analysis of the deposited data

How the results depend on the processing

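Lost and gained counts followed the number of peaks and the libraries required. No test was made, paired or unpaired. Each replicate pair, matched by replicate number only, is given on its own. With the better-scoring 50% of each list, chromosome 16 had 18 lost and 11 gained regions and chromosome 18 had 20 and 11. With the same number of best peaks per library, gained regions were 17 and 6, and lost regions kept within 1.5 times. With a peak in either replicate and none in the other cell type there were 440 lost and 523 gained regions on chromosome 16 and 332 and 458 on chromosome 18. The replicate 1 pair alone gave 211 lost and 149 gained on chromosome 16 and 175 and 119 on chromosome 18. The replicate 2 pair alone gave 401 and 502, and 302 and 455. When each library was left out, lost regions ranged from 46 to 390 (390 without MCF10A replicate 1, then 138 when G12V replicate 2 and 98 when MCF10A replicate 2 was left out) on chromosome 16 and from 36 to 286 on chromosome 18, and gained regions from 28 to 488 (highest without G12V replicate 1) and from 25 to 438. Requiring fewer libraries raises such counts by construction. A stricter overlap and merging within 200 bp kept all 4 counts within 1.5 times. The gained share of both classes stayed under that of all chromosomes in each of these settings, and both chromosomes were among the 5 lowest of 23. Because the chromosomes were selected on this share and every setting reuses the same lists, this adds no separate support.

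With percentiles of the whole lists in place of ranks, the median rank difference was -2.56 on chromosome 16 and -1.30 on chromosome 18, beside 2.85 over all chromosomes, and 7 of 81 and 5 of 78 regions were lower in both G12V libraries, beside 353 of 5090 (6.94%) over all chromosomes. In the replicate 1 pair alone the median was -3.82 and -8.33, with 45 and 51 regions lower beside 49.5% over all chromosomes, and in the replicate 2 pair alone 63 and 56 were lower beside 50.7%. Leaving out a library gave medians from -12.0 to -8.17 and from -9.04 to -3.79, with 40 to 83 and 38 to 81 regions lower (74 and 72 without MCF10A replicate 1, 83 and 81 without G12V replicate 1), beside 32.7% to 36.3% over all chromosomes. These runs rank the regions called in the 3 other libraries, up to 175 on chromosome 16. No median changed sign.

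The share of lost regions with a p53 match was 2.60% with up to 2 mismatches and 18.2% over whole regions, beside 3.92% and 21.0% of lost regions elsewhere. Leaving out 1 library gave 3.64% to 7.32% (chosen after seeing the data), over 82 to 676 regions. Counts by arm moved by more than 1.5 times in 58 of 88 settings and counts of list genes in 101 of 198, in part because the counts are small. Gained regions outnumbered lost ones on all 4 arms with a peak in either replicate, without G12V replicate 1 and in the replicate 2 pair alone, and on 16q and 18q without MCF10A replicate 2 (51 lost and 52 gained, 59 and 67). With 2 libraries per cell type and no read counts, a peak missing from the 14042 of G12V replicate 1 was not detectable at this depth, which is not the same as closed chromatin.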
